A study of Mus musculus with 4 samples.

Results

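Glycolysis and hypoxia response genes were followed across 4 preparations of BALB/c mouse mast cells. The list held 35 genes, chosen by name for their function: glycolytic enzymes, regulators of glycolytic flux, glucose and lactate carriers, oxygen sensors and further targets of the hypoxia-inducible factor (HIF). A probe set annotated with 1 gene symbol was present for 30 of the 35, out of 22180 genes measured that way. Gpi1, Aldoa, Eno1, Bnip3l and Ankrd37 had no such probe set and were not analysed here.

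Glycolysis splits glucose into pyruvate in the cytosol, and lactate dehydrogenase and the lactate carriers dispose of what the mitochondria do not take. HIF is a pair of proteins whose alpha subunit is hydroxylated by the Egln enzymes and destroyed while oxygen is present. When oxygen is short the alpha subunit accumulates, binds the core motif ACGTG or GCGTG and activates many glycolytic genes together with Vegfa, Bnip3, Ndrg1 and Car9. The intestinal mucosa is a tissue known for low oxygen.

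Each of the 4 groups had 1 array. Replicate error is therefore unknown for all values, no p-value was computed, and precision is limited by the array number. Mast cells grown out of bone marrow (BMMCs) were cultured with stem cell factor and interleukin-3, both at 10 ng/ml, over 3 to 4 weeks. The TGF-beta1 group was then kept for 6 days with the cytokine TGF-beta1 at 5 ng/ml. The Dll1 group spent 6 days on CHO feeder cells, a hamster ovary line, carrying the Notch ligand Dll1, and magnetic selection for c-Kit then recovered its mast cells. The intestinal group was mast cells of the small intestinal lamina propria of naive mice, sorted by flow cytometry for FceRI and c-Kit, with no culture step named. The control group was BMMCs kept for 6 days in normal medium. The labels give no age, sex or number of mice and do not say whether cells of several mice were pooled. Treatment, feeder cells, bead selection, tissue digestion and sorting go with the groups and cannot be told apart from them.

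Mast cell identity was clear on every array. Kit, the stem cell factor receptor, read 12.22 on the log2 scale with TGF-beta1, 12.54 with Dll1, 11.75 in intestinal cells and 12.65 in control cells, and all 8 mast cell genes checked were above background on all 4 arrays. Of these 8, Tph1 was the 1 called relative to control cells, lower in intestinal cells at 10.92 against 12.18. The background limit, the 95th percentile of 1443 odour, pheromone and taste receptor probe sets, was 5.21 on the TGF-beta1 array, 5.13 on the Dll1 array, 5.11 on the intestinal array and 5.12 on the control array. A gene is called higher or lower where 1 or both arrays exceeded the limit and the difference was 2-fold or more (1 on the log2 scale). For this, values under the limit were set to it. In these bulk preparations, fewer cells of a type and less RNA per cell cannot be told apart. Levels are set against each other for the same gene, not across genes.

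Promoter sequence is shown for 6 members: the 4 that were lower in intestinal than in control cells and had an entry in the RefSeq promoter table, then Ddit4, which was highest in intestinal cells, and Ldha, which hardly varied. Each stretch is the 250 bases before the most upstream listed transcription start, 5′ to 3′ on the gene's strand, in the RefSeq table's build GRCm38.p6. Capitals mark the HIF core motif, ACGTG or GCGTG, or its reverse complement, CACGT or CACGC.
Aldoc, chr11:78322823-78323072, plus strand: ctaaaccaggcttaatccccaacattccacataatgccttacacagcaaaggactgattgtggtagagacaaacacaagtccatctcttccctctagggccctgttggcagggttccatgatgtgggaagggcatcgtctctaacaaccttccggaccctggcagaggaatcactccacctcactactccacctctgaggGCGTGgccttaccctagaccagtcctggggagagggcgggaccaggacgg
Pfkp, chr13:6648772-6649021, minus strand: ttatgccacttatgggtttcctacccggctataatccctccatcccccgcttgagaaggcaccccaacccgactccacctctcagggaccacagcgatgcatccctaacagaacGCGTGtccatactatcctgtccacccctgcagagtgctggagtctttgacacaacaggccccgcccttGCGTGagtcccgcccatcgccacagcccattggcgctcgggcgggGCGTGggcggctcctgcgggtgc
Pgam1, chr19:41911621-41911870, plus strand: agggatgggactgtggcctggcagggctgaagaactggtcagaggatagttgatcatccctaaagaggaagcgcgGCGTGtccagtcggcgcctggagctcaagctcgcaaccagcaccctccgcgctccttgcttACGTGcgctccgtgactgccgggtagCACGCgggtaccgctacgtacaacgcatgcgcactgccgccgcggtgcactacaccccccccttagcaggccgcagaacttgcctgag
Bnip3, chr7:138909507-138909756, minus strand: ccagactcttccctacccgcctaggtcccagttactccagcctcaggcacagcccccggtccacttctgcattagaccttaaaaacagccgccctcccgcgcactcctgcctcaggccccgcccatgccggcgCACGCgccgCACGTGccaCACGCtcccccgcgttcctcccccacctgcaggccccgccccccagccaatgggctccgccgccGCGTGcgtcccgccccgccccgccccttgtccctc
Ddit4, chr10:59951771-59952020, minus strand: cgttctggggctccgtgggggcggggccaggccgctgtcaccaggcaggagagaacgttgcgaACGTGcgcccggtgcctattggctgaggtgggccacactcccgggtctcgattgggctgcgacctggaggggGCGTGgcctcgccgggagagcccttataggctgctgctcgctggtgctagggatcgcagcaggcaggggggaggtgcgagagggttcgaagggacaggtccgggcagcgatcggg
Ldha, chr7:46845554-46845803, plus strand: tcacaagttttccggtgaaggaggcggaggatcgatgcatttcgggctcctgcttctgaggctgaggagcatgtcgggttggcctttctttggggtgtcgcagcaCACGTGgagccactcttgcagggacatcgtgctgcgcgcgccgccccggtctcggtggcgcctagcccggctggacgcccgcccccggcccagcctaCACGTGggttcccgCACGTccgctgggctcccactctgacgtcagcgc

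The ACGTG core occurred in these 250 bases 5 times for Ldha, with both strands counted so that a CACGTG counts on each, 2 times for Bnip3, and 1 time each for Pgam1 and Ddit4. Aldoc and Pfkp had 0 matches to ACGTG and had 1 and 3 matches to GCGTG. In the full windows, which run 50 bases past each of its 2 listed starts, Aldoc had up to 1 match to ACGTG and up to 2 to GCGTG at a start. Over the full windows of 250 bases before to 50 after a start, 32 of the 35 listed genes had an entry, and 23 of them (71.9%) held ACGTG on either strand at 1 or more starts. The share was 28.4% of the 10434 genes that had an entry and were above background on at least 1 array, and 21.8% of all 27025 genes in the table. Members' windows had a median GC content of 62.2%, against 60.3% for the genes above background and 52.7% for the whole table. Part of the list was assembled as known HIF targets, so this share is a description of the list, and a match is not a measured site. Slc2a3, Bnip3l and Ndrg1 were not matched in the table.

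The members varied more widely across the 4 arrays than genes at large, although Gapdh, Tpi1, Ldha and Pfkl were nearly level. Of the 30 measured members, 26 were above background on all 4 arrays, 1 (Eno2) on 3, and Ldhb, Pdk1 and Egln3 on none. Among the 27 above background on at least 1 array, the range from the lowest to the highest array was under 0.5 for 5 (18.5%) and at least 1 for 9 (33.3%). For all 13328 genes above background on at least 1 array, the shares were 50.1% and 16.3%. The 13328 genes were not matched to the members for signal level, and differences of genes near background are compressed. Members were chosen with earlier results of these data known, so the contrast only describes this list. The intestinal array held the lowest value of 16 of these 27 members and the Dll1 array the highest value of 12. The intestinal array held the lowest value of 33.1% of the 13328 genes, and the Dll1 array the highest value of 26.8%. The TGF-beta1 array was lowest for 7 members, the Dll1 array for 3 and the control array for 1, Pgk1.

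**Figure D1:**
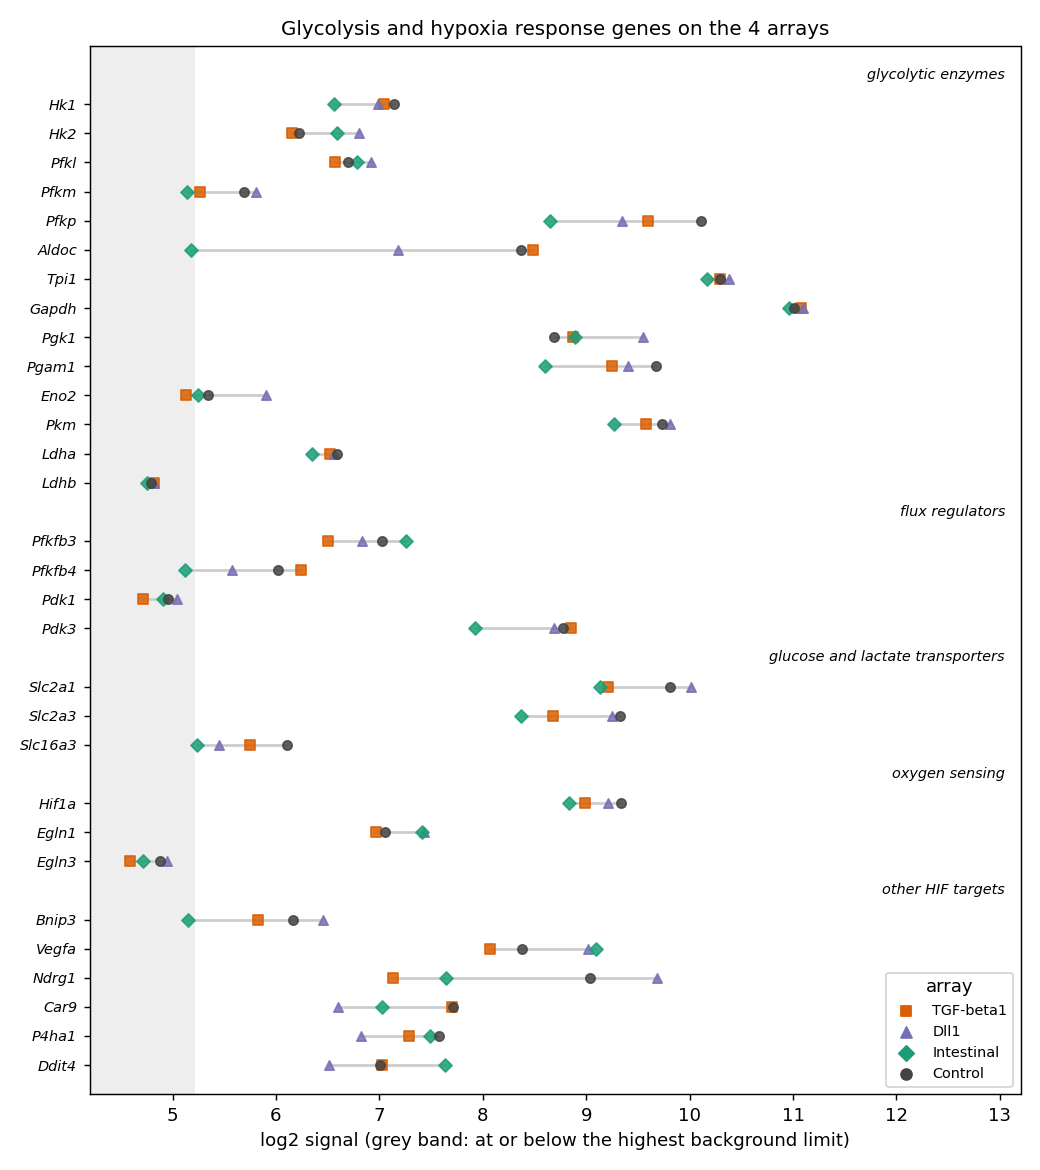
Log2 signal of the 30 measured members on the TGF-beta1 (squares), Dll1 (triangles), intestinal (diamonds) and control (circles) arrays, 1 array each, grouped by role, with a line over the range of each gene. Gapdh and Tpi1 lie nearly on 1 point, while Aldoc spans 3.31 and Ndrg1 2.56.

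The first step of the pathway is the phosphorylation of glucose by the hexokinases. Hk1, the widely expressed form, read 7.04 with TGF-beta1, 6.99 with Dll1, 6.56 in intestinal cells and 7.14 in control cells. Hk2, the inducible form and a HIF target, read 6.15 with TGF-beta1, 6.81 with Dll1, 6.59 in intestinal cells and 6.22 in control cells. The intestinal array was thus lowest for Hk1 and next to highest for Hk2, and neither gene differed 2-fold between any pair of arrays.

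Phosphofructokinase, the main control point of the pathway, is built from liver (Pfkl), muscle (Pfkm) and platelet (Pfkp) subunits. Pfkp read 9.60 with TGF-beta1, 9.34 with Dll1, 8.65 in intestinal cells and 10.11 in control cells. It was highest in control cells and lowest in intestinal cells, where it was 2.76-fold lower than in control cells. Pfkl stayed between 6.57 and 6.92, a range of 0.35, with the Dll1 array highest. Pfkm read 5.26 with TGF-beta1, 5.81 with Dll1, 5.14 in intestinal cells and 5.69 in control cells. Its TGF-beta1 and intestinal values lay within 0.06 of the background limit. So the intestinal array was low for Pfkp and Pfkm but not for Pfkl, whose difference from control was 0.09.

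Aldolase splits fructose bisphosphate, and Aldoc encodes the form best known from the brain. Aldoc read 8.48 with TGF-beta1, 7.18 with Dll1, 5.18 in intestinal cells and 8.37 in control cells. TGF-beta1-treated and control cells were high and near each other, Dll1-cocultured cells lay between, and intestinal cells stood 0.07 above the background limit. Relative to control cells Aldoc was 2.28-fold lower with Dll1 and 9.17-fold lower in intestinal cells. Among 12722 genes tested between intestinal and control cells, Aldoc had the 44th lowest difference. With the background limit at the 99th percentile the intestinal value counted as the limit, and the difference of -3.20 became -2.45 on the log2 scale. With that limit the Aldoc difference was -2.56 between intestinal and TGF-beta1-treated cells, where it had been -3.31, and -1.26 between intestinal and Dll1-cocultured cells, where it had been -2.01.

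Of the next enzymes, Tpi1 and Gapdh hardly varied, while Pgk1 had a range of 0.87. Tpi1, triosephosphate isomerase, lay between 10.17 in intestinal cells and 10.38 with Dll1. Gapdh lay between 10.96 in intestinal cells and 11.10 with Dll1, and its other probe sets also varied by less than 0.25 across the arrays. Gapdh has many processed pseudogenes in the mouse, so its separate level is uncertain, although the 3 probe sets compared here carry its symbol alone. Pgk1, phosphoglycerate kinase, read 8.88 with TGF-beta1, 9.55 with Dll1, 8.89 in intestinal cells and 8.68 in control cells, so the Dll1 array stood above 3 nearly equal ones.

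Pgam1, phosphoglycerate mutase, read 9.25 with TGF-beta1, 9.40 with Dll1, 8.61 in intestinal cells and 9.67 in control cells. It was 2.09-fold lower in intestinal than in control cells. The other Pgam1 probe set also had its lowest value in intestinal cells, 7.17 against 7.96 in control cells, a difference of -0.78. With the mean of both probe sets the difference was -0.92 and no longer reached 2-fold.

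At the end of the pathway, Eno2, the neuronal enolase, read 5.13 with TGF-beta1, 5.90 with Dll1, 5.25 in intestinal cells and 5.35 in control cells, with the TGF-beta1 value below background. Pkm, pyruvate kinase, read 9.58 with TGF-beta1, 9.81 with Dll1, 9.27 in intestinal cells and 9.73 in control cells. Ldha, which turns pyruvate into lactate, lay between 6.35 in intestinal cells and 6.59 in control cells. With both strands counted, the Ldha promoter printed above held the most ACGTG matches of the members with an entry. Its 5 matches lay in 3 separate stretches. The Ldha signal had a range of 0.24. Ldhb, the partner subunit favouring the reverse reaction, was below background on every array.

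Flux into and out of glycolysis is set by the Pfkfb enzymes, which make and remove the activator of phosphofructokinase, and by the Pdk kinases, which keep pyruvate out of the mitochondria. Pfkfb3 read 6.50 with TGF-beta1, 6.84 with Dll1, 7.25 in intestinal cells and 7.02 in control cells. Pfkfb4 read 6.24 with TGF-beta1, 5.57 with Dll1, 5.12 in intestinal cells and 6.02 in control cells. These relatives had opposite extremes, with TGF-beta1 lowest and intestinal cells highest for Pfkfb3, and intestinal cells lowest and TGF-beta1 highest for Pfkfb4. Pfkfb4 was 2.17-fold lower in intestinal than in TGF-beta1-treated cells. Its intestinal value was 0.0074 above the background limit, and with the limit at the 99th percentile that difference was -0.32 and the call was lost. Pdk3 read 8.85 with TGF-beta1, 8.69 with Dll1, 7.93 in intestinal cells and 8.77 in control cells, so the 3 cultures lay close together and intestinal cells below them. Pdk1, a classical HIF target, was below background on all arrays in both of its probe sets.

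All 3 carriers had a lower value in intestinal than in control cells, but none reached 2-fold. With array medians subtracted Slc2a3 was called lower, which made 6 members lower in that comparison. Slc2a1 (GLUT1), the main glucose carrier of many cells, read 9.21 with TGF-beta1, 10.02 with Dll1, 9.13 in intestinal cells and 9.81 in control cells. Slc2a3 (GLUT3), a high-affinity glucose carrier, read 8.68 with TGF-beta1, 9.25 with Dll1, 8.37 in intestinal cells and 9.33 in control cells. For both, the TGF-beta1 and intestinal arrays were the low pair and the Dll1 and control arrays the high pair. Slc16a3 (MCT4), which exports lactate, read 5.75 with TGF-beta1, 5.45 with Dll1, 5.23 in intestinal cells and 6.11 in control cells. Intestinal minus control was -0.68 for Slc2a1, -0.97 for Slc2a3 and -0.88 for Slc16a3, and TGF-beta1 minus control was -0.60, -0.66 and -0.36 for the same genes. The other Slc2a1 probe set lay near background, between 5.24 and 5.52, and its difference was 0.09 between intestinal and control cells and 0.12 between TGF-beta1-treated and control cells.

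Among the genes of oxygen sensing, Hif1a, the alpha subunit of HIF-1, read 8.99 with TGF-beta1, 9.21 with Dll1, 8.83 in intestinal cells and 9.34 in control cells. Its protein is regulated mainly by degradation, which an array does not see. Egln1 (PHD2), the main hydroxylase that marks HIF alpha subunits for destruction, read 6.96 with TGF-beta1, 7.43 with Dll1, 7.42 in intestinal cells and 7.06 in control cells. Hif1a was thus lowest and Egln1 close to highest in intestinal cells, by -0.50 and 0.36 relative to control cells. Egln3, an inducible relative, was below background throughout.

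The HIF targets outside glycolysis varied most, and not together. Ndrg1, a stress-responsive gene of cell differentiation, read 7.13 with TGF-beta1, 9.69 with Dll1, 7.64 in intestinal cells and 9.04 in control cells. The TGF-beta1 and intestinal arrays were low and the Dll1 and control arrays high, the same low and high pairs as for Slc2a1 and Slc2a3. Ndrg1 was 3.75-fold lower with TGF-beta1 and 2.63-fold lower in intestinal cells, each relative to control cells. It was 5.88-fold higher with Dll1 than with TGF-beta1. The other Ndrg1 probe set had the same order of pairs, 5.18 with TGF-beta1, 6.46 with Dll1, 5.35 in intestinal cells and 6.42 in control cells.

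Bnip3, a mitochondrial protein that promotes mitophagy, read 5.83 with TGF-beta1, 6.46 with Dll1, 5.15 in intestinal cells and 6.16 in control cells. It was 2.02-fold lower in intestinal than in control cells and 2.48-fold lower than with Dll1. Its intestinal value stood 0.03 above the limit, and with the limit at the 99th percentile both calls were lost, at -0.24 and -0.53. Vegfa, the growth factor for blood vessels, read 8.07 with TGF-beta1, 9.01 with Dll1, 9.10 in intestinal cells and 8.38 in control cells. Dll1-cocultured and intestinal cells were the high pair here, and Vegfa was 2.03-fold higher in intestinal than in TGF-beta1-treated cells. With array medians subtracted the difference of 1.02 was 0.9962, just under the threshold.

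Ddit4 (REDD1), an inhibitor of mTORC1 induced by hypoxia and other stresses, read 7.03 with TGF-beta1, 6.52 with Dll1, 7.63 in intestinal cells and 7.002 in control cells. It was 2.17-fold higher in intestinal than in Dll1-cocultured cells. P4ha1, a collagen prolyl hydroxylase subunit, read 7.29 with TGF-beta1, 6.82 with Dll1, 7.49 in intestinal cells and 7.58 in control cells, with Dll1 lowest as for Ddit4.

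Car9, a surface carbonic anhydrase widely used as a marker of hypoxia, read 7.71 with TGF-beta1, 6.60 with Dll1, 7.03 in intestinal cells and 7.72 in control cells. It was 2.17-fold lower with Dll1 than in control cells and 2.15-fold lower with Dll1 than with TGF-beta1. The other Car9 probe set read 5.99 with TGF-beta1, 5.69 with Dll1, 6.83 in intestinal cells and 5.97 in control cells. Both probe sets had their lowest value with Dll1, but they disagreed in direction between intestinal and control cells, by -0.69 and 0.86. With their mean, both Dll1 calls were lost, at -0.70 relative to control and -0.70 relative to TGF-beta1, so the level of Car9 is uncertain.

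Taking the comparisons in turn, TGF-beta1 minus control had 1 of the 30 members lower, Ndrg1, and 0 higher. Of all 12023 genes tested, 0.89% were lower and 0.507% higher, 1.4% in all. The 30 members had a median difference of -0.18, with 23 below 0, against a median of 0.01 over all 22180 genes. Beside Ndrg1, the lowest differences were those of Slc2a3 (-0.66), Slc2a1 (-0.60), Pfkfb3 (-0.52) and Pfkp (-0.51). As a gauge of spread between probe sets, the log2 differences of a gene's probe sets had a within-gene standard deviation of 0.24 in this comparison. It was taken over 338 genes with both probe sets above background. Probe sets of a gene share both arrays, so this gauge covers no error of a whole array and no variation between cultures. Of the marker genes of other cell types examined, 1 epithelial gene, Cdh1, was higher and 1 eosinophil or neutrophil gene lower with TGF-beta1 than in control cells.

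Dll1 minus control had 2 members lower, Aldoc and Car9, and 0 higher. Over all genes 1.78% were lower and 1.64% higher, 3.42% in all. The higher ones made up 47.9% of these calls, or 35.6% with array medians subtracted. The members' median was 0.05, against 0.02 over all genes, and 16 lay above 0. The highest member was Pgk1 (0.87), followed by Ndrg1 (0.65), Vegfa (0.63), Hk2 (0.59) and Eno2 (0.56). Of 16 genes of adherent cells, 4 were higher with Dll1 than in control cells, and their summed log2 signal was 96.0 with Dll1 against 85.9 in control cells. Among the 4 was Dll1 itself, the ligand that the feeder cells carried, at 7.10 on the Dll1 array against 4.79 in control cells. Col1a2, Tagln and Cav1 were below background on every array. Of 13 genes of T and innate lymphoid cells 3 were higher, Gzma, Nkg7 and Il7r, with a summed log2 signal of 71.0 against 64.3. Cd3g, Cd3e and Cd8b1 of the same list read 4.51, 4.91 and 5.01 with Dll1, all below background. Of 14 eosinophil and neutrophil genes 8 were higher with Dll1 and 1 was lower, with a summed log2 signal of 102.4 against 70.3 in control cells. Prg2, the widest of the 8, read 11.45 with Dll1 against 5.40 in control cells, 66.0-fold higher. The part of these, or of hamster RNA, in the members' differences was not tested.

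Intestinal minus control had 5 members lower, Aldoc, Pfkp, Ndrg1, Pgam1 and Bnip3, and 0 higher. Over all genes 6.74% were lower and 4.47% higher, 11.2% in all. The members' median was -0.35, against 0.00 over all genes, and 23 of the 30 lay below 0. The median of the 14 enzymes was -0.18, of the 3 carriers -0.88 and of the 6 other HIF targets -0.39. Vegfa (0.71) and Ddit4 (0.63) were the highest members. The gauge of spread between probe sets was 0.48 here, wider than for the cultures.

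Immediate early and heat shock genes also differed in this comparison. Of 25 immediate early and heat shock genes, 24 were higher in intestinal than in control cells, and their summed log2 signal was 244.4 against 155.9. With Dll1, 12 of the 25 were higher than in control cells, with a sum of 197.3. Markers of other cells were higher in intestinal cells too: 6 of 19 for epithelium (summed log2 signal 113.0 against 94.0 in control cells), 7 of 13 for T and innate lymphoid cells (89.8 against 64.3) and 4 of 13 for macrophages and dendritic cells (82.8 against 67.1). Epcam, Vil1, Krt19, Cldn7 and Elf3 of the epithelial list, Klrd1 of the lymphoid list, and C1qc and Zbtb46 of the macrophage and dendritic list were below background on every array. Other genes of the same lists stood far above control in intestinal cells. Itgax (CD11c), a dendritic cell marker, read 11.19 in intestinal cells against 4.86 in control cells, at least 67.4-fold higher. Gzma, a granzyme of cytotoxic lymphocytes, was at least 37.1-fold higher. With Dll1 it read 7.92, against 4.62 in control cells. Cd3g, a subunit of the T cell receptor complex, was called higher at 8.84 in intestinal cells against 4.55 in control cells. Cdh1 (E-cadherin), an epithelial adhesion protein, was 15.5-fold higher, at 10.12 against 6.16 in control cells. Cdh1 was also above background in every culture, at 7.57 with TGF-beta1 and 6.32 with Dll1. With TGF-beta1 it was called higher than in control cells, by 2.66-fold. Of the eosinophil and neutrophil genes and of the adherent cell genes, 1 each was higher and 1 lower. Whether handling or other cells had a part in the members' differences was not tested.

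Between the treatments, Dll1 minus TGF-beta1 had 1 member higher, Ndrg1, and 2 lower, Aldoc and Car9. Over all genes 2.19% were higher and 1.9% lower, 4.09% in all. The members' median was 0.23, against 0.02 over all genes, with 20 above 0. After Ndrg1 (2.56) came Vegfa (0.94), Slc2a1 (0.80), Eno2 (0.77), Pgk1 (0.68) and Hk2 (0.65). After 16 units were taken off the linear signals, which widens the differences of dim genes, Eno2 was called higher as well.

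Against the treated cultures, intestinal minus TGF-beta1 had 2 members lower, Aldoc (9.89-fold) and Pfkfb4, and 1 higher, Vegfa. Over all genes 4.56% were lower and 4.06% higher, 8.61% in all. The members' median was -0.12, against -0.01 over all genes. Intestinal minus Dll1 had 3 lower, Ndrg1 (4.13-fold), Aldoc (4.02-fold) and Bnip3, and 1 higher, Ddit4. Over all genes 4.14% were lower and 3.56% higher, 7.69% in all. The median there was -0.30, against -0.03 over all genes, and all 14 measured enzymes had differences below 0, from -2.01 to -0.07. The last was that of Ldhb, which was below background on both arrays. Of all 22180 genes, 12565 had differences below 0. The 6 comparisons share arrays, so they are not independent of each other.

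**Figure D2:**
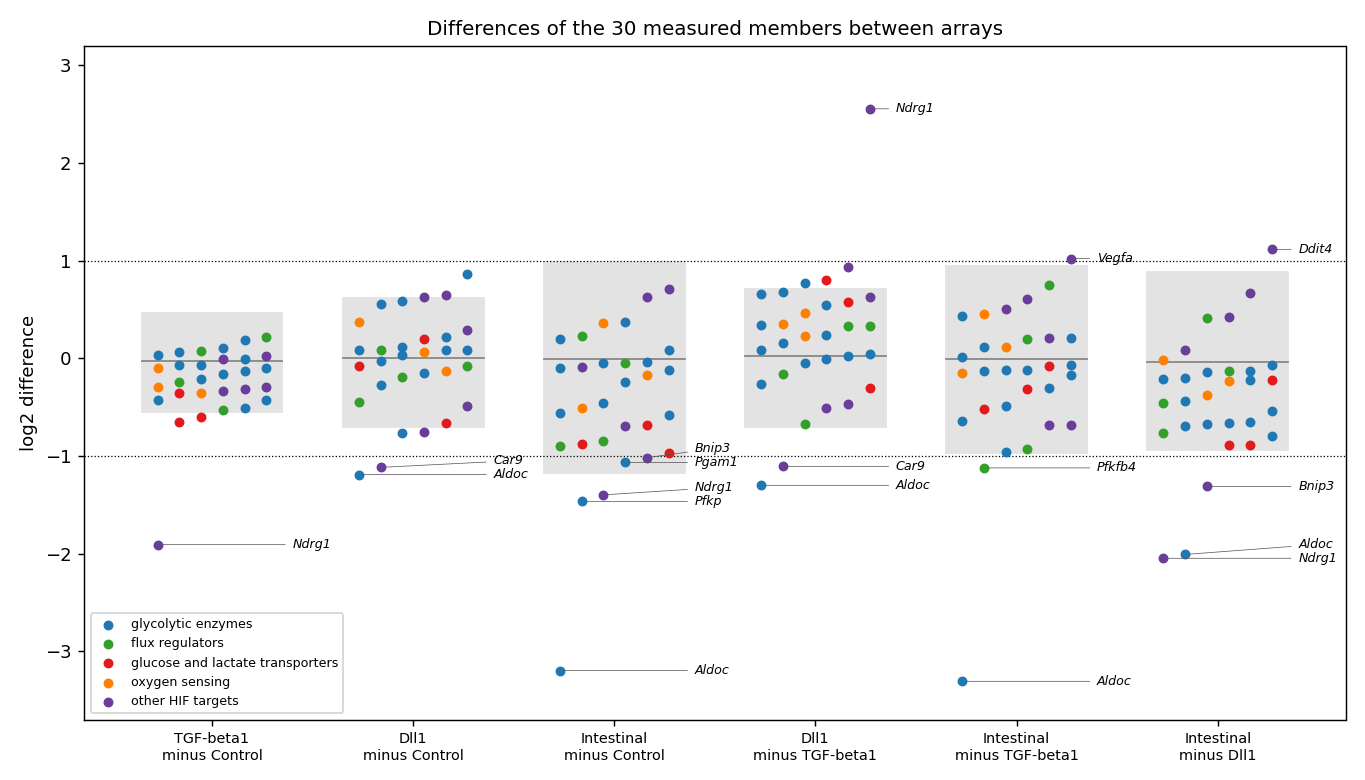
Log2 differences (first array minus the other) of the 30 measured members in the 6 comparisons, coloured by role; grey boxes span the 5th to 95th percentile of all genes tested, grey lines their median and dotted lines 2-fold. Members called are named: Aldoc is far below the box in all 3 comparisons of intestinal cells, and Ndrg1 lies outside it in 5 of the 6.

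The rest of the pathway was taken from lists of genes that were not members. Of 37 other measured genes of sugar and pyruvate metabolism, 1 was higher and 1 lower in intestinal than in control cells, with a median of -0.07, and 0 were called with TGF-beta1 or with Dll1 relative to control. Over all genes tested, 4.47% were higher and 6.74% lower in intestinal cells, and 1.4% were called with TGF-beta1 and 3.42% with Dll1. Slc16a1 (MCT1), a carrier of lactate and pyruvate, read 5.70 with TGF-beta1, 5.80 with Dll1, 7.32 in intestinal cells and 5.31 in control cells. It was 4.02-fold higher in intestinal than in control cells, whereas its relative Slc16a3 had a difference of -0.88. Pcx, pyruvate carboxylase, which feeds pyruvate into oxaloacetate, read 7.60 with TGF-beta1, 7.63 with Dll1, 5.45 in intestinal cells and 7.41 in control cells. The cultures were level, and Pcx was 3.88-fold lower in intestinal than in control cells. Slc16a7 (MCT2), a high-affinity relative of Slc16a1, read 5.05 with TGF-beta1, 6.29 with Dll1, 6.73 in intestinal cells and 5.78 in control cells. It was below background with TGF-beta1 and at least 2.86-fold higher in intestinal cells and at least 2.11-fold higher with Dll1 than there.

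Of 35 other measured HIF target genes, 0 were called with TGF-beta1, 2 were higher with Dll1, and 1 was higher and 2 lower in intestinal cells, each relative to control. Between intestinal and control cells, 28 of the 35 were tested. Over all genes tested, 1.4% were called with TGF-beta1 and 1.64% were higher with Dll1. In intestinal cells 4.47% were higher and 6.74% lower. The counts were not tested against these shares. Hilpda, a lipid droplet protein induced by hypoxia, read 6.90 with TGF-beta1, 7.16 with Dll1, 7.95 in intestinal cells and 6.57 in control cells, 2.6-fold higher in intestinal than in control cells. Cited2, which competes with HIF for its coactivators, read 11.40 with TGF-beta1, 11.63 with Dll1, 10.16 in intestinal cells and 11.73 in control cells, 2.97-fold lower in intestinal than in control cells. Kdm4b, a histone demethylase, was 2.04-fold lower there, at 6.35 against 7.38. With Dll1, Anxa2 (annexin A2) was 3.44-fold higher than in control cells, at 7.03 against 5.25. Plod2, a collagen lysyl hydroxylase, was at least 2.67-fold higher, at 6.53 with Dll1 against 5.06 in control cells. Anxa2 also stands in the list of adherent cell genes.

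The widest difference among these genes was that of Epas1, which encodes HIF-2alpha, the other oxygen-regulated alpha subunit. Epas1 read 5.09 with TGF-beta1, 5.28 with Dll1, 11.02 in intestinal cells and 4.97 in control cells. It was below background with TGF-beta1 and in control cells, just above it with Dll1, and high in intestinal cells. It was at least 59.7-fold higher in intestinal than in control cells, at least 56.0-fold higher than with TGF-beta1 and 53.4-fold higher than with Dll1. Among the 12722 genes tested between intestinal and control cells it had the 7th highest difference. Of the 21 measured genes of the HIF machinery, Epas1 was the 1 called in that comparison, and the median was 0.00. Over all genes tested there, 11.2% were called.

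Itgax, from the macrophage and dendritic list, had the 6th highest difference between intestinal and control cells. Hspa1b and Dusp1, from the immediate early and heat shock list, had the 5th and 8th. Of 13 endothelial genes, a list chosen after the value of Epas1 was seen, 6 were above background in intestinal cells and 5 in control cells. Between these arrays 0 of the 13 were higher and 2, Tek and Vwf, lower, where 4.47% of all genes were higher and 6.74% lower. Cdh5, Kdr, Emcn, Cldn5, Robo4 and Plvap were below background on every array. The part of other cell types in the value of Epas1 was not tested. With Dll1, Arnt2, a partner subunit related to the HIF beta subunit Arnt, was at least 2.16-fold higher than in control cells, at 6.23 against 5.02, and Mxd4, a relative of the Myc antagonists, was 2.36-fold lower, at 7.19 against 8.42.

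**Figure D3:**
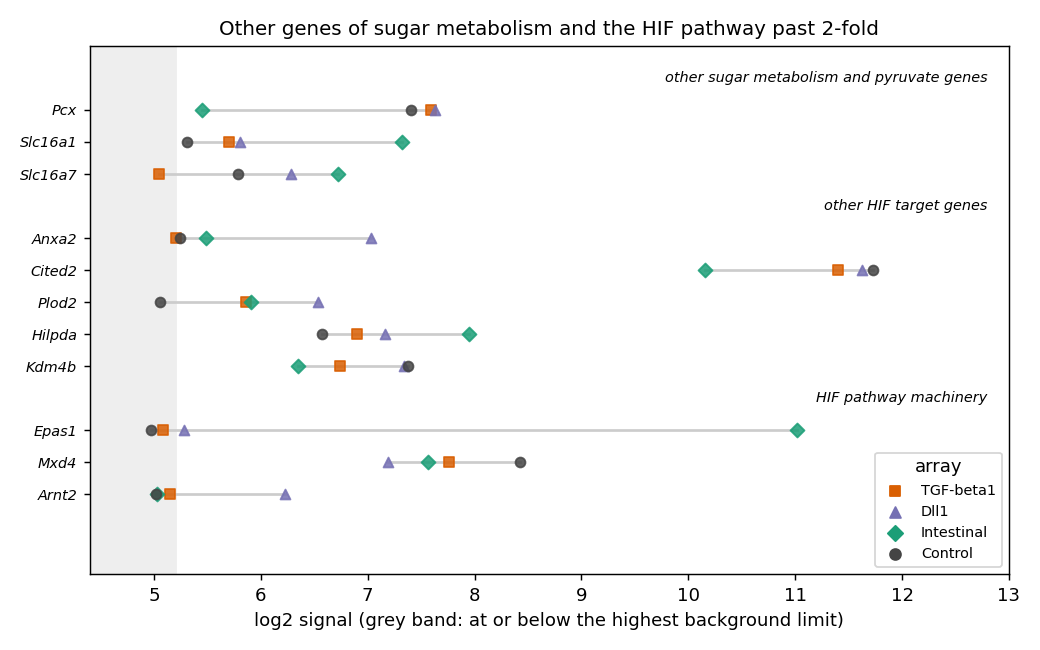
Log2 signal on the 4 arrays of the genes outside the member list that were called in at least 1 comparison, with the symbols for the TGF-beta1, Dll1, intestinal and control arrays given in the key. Epas1 stands at 11.02 in intestinal cells and at or near background on the other arrays, and Pcx and Slc16a1 set intestinal cells apart in opposite directions.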

How the data were processed

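RNA of 4 mast cell preparations was hybridised to 1 Affymetrix whole-transcript array each, after amplification of 2 ng, per the labels' protocols. The deposited table holds log2 values of 33793 probe sets, from 4.13 to 13.14. For the probe summary, normalization and build, the sources used here give nothing. Sorted values of the arrays differed by at most 0.25, so the arrays already shared nearly 1 distribution, and nothing more was normalized. Platform annotation gave 23521 probe sets 1 symbol, 1814 several and 8458 none. For the 1082 genes with several probe sets the one with the highest mean was used. Of the listed symbols, 6 outdated ones were updated through RefSeq synonyms.

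Differences of log2 values were computed in Python 3.11.15 with pandas 2.3.3. With 1 array a group there was no test. Alternatives were array medians subtracted, quantile normalization, a background limit at the 90th or 99th percentile or none, the mean of probe sets, and an offset of 16. Every member is named, as are up to 6 genes of each pathway list past 2-fold, which took in all of them. Members and lists were chosen with earlier results of these data known.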

Additional observations from a re-analysis of the deposited data

How the results depend on the processing

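Of the 18 called differences of single members, 119 of the 126 values under the 7 alternatives kept their direction and call. The other 7 kept their direction and lost the call, as given beside Bnip3, Car9, Pfkfb4, Pgam1 and Vegfa. Of the counts and medians over the members, 118 values stayed within 1.5 times or within 0.1 and 8 did not. With each gene's probe sets averaged, which brings in dim probe sets, the median for intestinal minus control was -0.17, and 1 member, Aldoc, was lower for Dll1 minus control and for Dll1 minus TGF-beta1. With 16 taken off the linear signals, 8 members were lower for intestinal minus control (Pfkfb4, Slc2a3 and Slc16a3 added), 2 were higher for Dll1 minus TGF-beta1, and the median for intestinal minus Dll1 was -0.45. With array medians subtracted, 0 members were higher for intestinal minus TGF-beta1, and Slc2a3 joined the lower members for intestinal minus control. With the limit at the 99th percentile, 1 member, Aldoc, was lower for intestinal minus TGF-beta1. The median for Dll1 minus control, 0.05, changed sign under 2 scalings, at -0.04 with array medians subtracted and -0.0045 after quantile normalization. Members near background have compressed differences, and saturation of bright probe sets was not tested. No paired analysis was possible because each group had 1 array, and no array could be left out.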
